A study of Homo sapiens with 4 samples.

Results

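Glycolysis breaks glucose down to pyruvate, and its enzymes include both the most abundant housekeeping proteins of a cell and a few tightly regulated control points. Hexokinases trap glucose in the cell by phosphorylating it, PFKFB3 makes the sugar bisphosphate that activates phosphofructokinase, and lactate dehydrogenase turns the pyruvate into lactate. YTHDF1 recognises N6-methyladenosine (m6A), a methyl mark on mRNA, and HK2 and MYC are mRNAs that earlier work linked to YTHDF1. Here the RNA bound to YTHDF1 was examined for 10 enzymes of this pathway, chosen by name: HK1, HK2, PFKP, PFKFB3, ALDOA, GAPDH, PGK1, ENO1, PKM and LDHA. Of these 10 genes, 7 had at least 1 listed window, and together they held 32 of the 26819 listed windows. The 7550 genes of the whole table with a window included 6679 protein-coding genes.

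RNA immunoprecipitation sequencing (RIP-seq) was performed in SNU638, an established cell line from a human gastric cancer, made to overexpress YTHDF1. All cells were kept without serum for 24 h and were then exposed to IFN-γ at 10 ng/ml during another 24 h. The 4 libraries were 2 immunoprecipitates of the tagged protein (IP-YTHDF1) and 2 inputs of total RNA. Both groups carried the overexpressed YTHDF1 and the IFN-γ treatment, so that binding without either was not measured.

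The deposited table has 1 row per 50 bp window of a gene, with a score named signal value beside its p-value and q-value, all for IP-YTHDF1 and input together. Single libraries have no column in it, so their depth is unknown, no replicate error can be attached to any value below, and no difference between genes was tested. The study describes its protein-coding peaks as a union over replicates, so a listed window may rest on a single replicate. The signal value has no stated scale and serves only to order windows. It ran from 0.70 to 9.46 over all windows, with a median of 1.84 and the central range (25th to 75th percentile) from 1.54 to 2.19. A list of windows gives no RNA level, so a gene without a window may be unbound, weakly bound or too scarce to test. Of 6 markers of epithelial cells 4 had a window (EPCAM, KRT8, KRT18 and KRT19, but not CDH1 or CLDN4), and of 7 markers of blood, connective tissue, endothelial and liver cells 0 had one, next to 31.8% of protein-coding genes.

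The first question was which of the glycolysis enzymes were listed at all. Windows were listed for HK1, HK2, PFKFB3, ALDOA, GAPDH, PGK1 and LDHA. None was listed for PFKP, a phosphofructokinase, for ENO1, the enolase that forms phosphoenolpyruvate, or for PKM, the pyruvate kinase of most dividing cells. The share of listed members was 70%, next to 31.8% of 20056 RefSeq protein-coding genes, a background that includes genes SNU638 cells may not express. The members were chosen with earlier results of these data known, so the shares were not tested against each other. At a q-value of at most 0.001 the same 7 members were listed, next to 21.2% of protein-coding genes. The same 7 were also left after adjustment over all windows tested in genes with a listed window (next to 31.3%). They were left too when only windows clear of other genes' windows were kept (next to 30.0%). Under a Bonferroni limit over all windows tested in genes with a listed window, 4 members were left, HK2, PFKFB3, ALDOA and PGK1, next to 12.5% of protein-coding genes. Windows tested in genes without a listed window are unknown and were not counted, so this limit and the adjustment above are lenient. With a minimum signal value of 2, the 4 left were HK1, HK2, PFKFB3 and ALDOA, next to 22.0%. HK2, PFKFB3 and ALDOA were listed under every one of these rules, while GAPDH and LDHA were lost under both of the last. ALDOA passed the Bonferroni limit only through its last window, which overlaps a window of another gene.

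By strand, 7 of the 8 members on the plus strand and 0 of the 2 on the minus strand (ENO1 and PKM) had a window. Over all protein-coding genes with an annotated start, the shares were 32.9% on the plus strand and 33.6% on the minus strand.

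HK2 is the hexokinase that many tumours express and that sits at the outer mitochondrial membrane. In the deposited table HK2 (ENSG00000159399, chr2:74834127-74893359, plus strand, GRCh38) had 7 windows, in order along the gene with signal values of 1.45, 1.82, 1.33, 1.84, 1.60, 2.81 and 1.34. A single window stood out, the sixth, at chr2:74880382-74880431 with a signal value of 2.81 and a p-value listed as 0. It exceeded 94.5% of all listed windows. Its neighbour on the 5′ side, chr2:74880332-74880381, reached 1.60, and no window was listed on its 3′ side until 10450 bases further on. The other 6 windows of HK2 had signal values at or below the median of the table. As the strongest window of a gene, 2.81 exceeded the strongest window of 85.9% of protein-coding genes and of 76.9% of the 260 protein-coding genes that likewise had 7 windows.

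The windows of HK2 were scattered. They formed 6 separate regions over 36550 bases of the gene, introns included. Only 3150 bases of HK2 were tested, so most of this distance, and of the 10450 bases named above, held no tested window. The first lay at 34.2% of the gene's length and the last at 95.9%, with the strongest at 78.1%. No window lay near an annotated start of HK2: the closest began 19212 bases after one. Whether a window lies in coding sequence or in an untranslated region was not analysed here.

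HK1 is the hexokinase that most tissues share. HK1 (ENSG00000156515, chr10:69270000-69401882, plus strand) had 6 windows, with signal values of 2.13, 1.91, 1.64, 1.18, 1.33 and 1.64 from 5′ to 3′. The strongest, chr10:69359985-69360034, came first, and all 6 were isolated windows between 68.3% and 88.2% of the gene. Both hexokinases therefore carried several separate windows. They differed in the strongest window, 2.81 in HK2 and 2.13 in HK1, a difference of 0.68, and hardly in the median over their windows, which was 1.60 in HK2 and 1.64 in HK1. The 2 windows of HK1 with a signal value of 1.64 also shared a p-value of 0.00486.

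**Figure D1:**
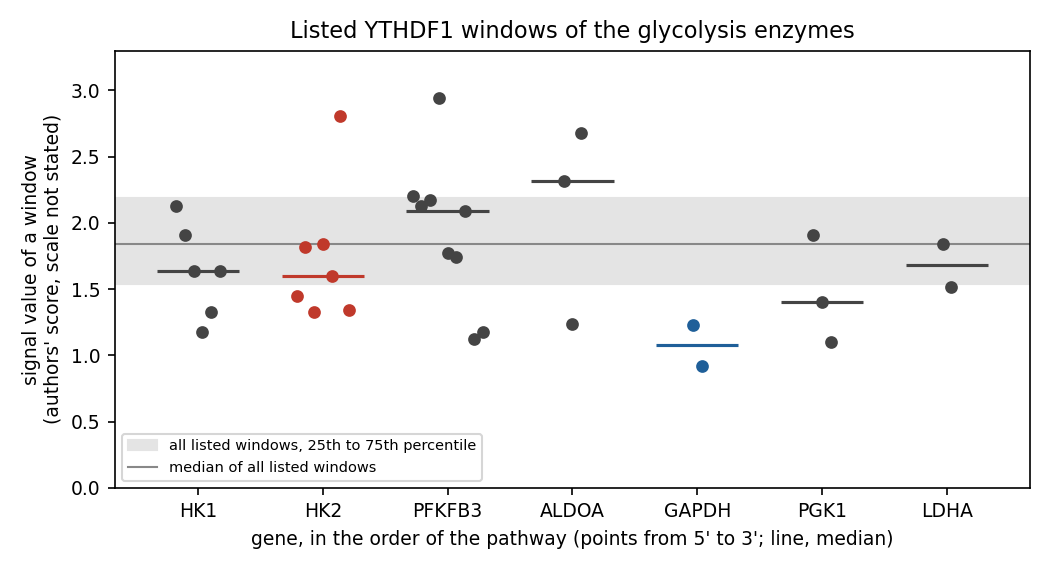
Signal value of each listed window (y axis, the authors' score with no stated scale) for the 7 listed members, with points in order from 5′ to 3′ within a gene and a line at the gene's median. The band and grey line give the 25th to 75th percentile (1.54 to 2.19) and the median (1.84) of all listed windows: HK2 has 1 window at 2.81 above the band, PFKFB3 and ALDOA reach 2.94 and 2.68, and both GAPDH windows lie below it.

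PFKFB3 had the strongest window and the most windows of the 10 enzymes. In the deposited table PFKFB3 (ENSG00000170525, chr10:6144921-6326637, plus strand) had 9 windows, with signal values of 2.20, 2.13, 2.17, 2.94, 1.77, 1.74, 2.09, 1.12 and 1.18 from 5′ to 3′. The first 6 were adjacent and formed 1 block of 300 bases, chr10:6202985-6203284, which held the strongest window of the gene at chr10:6203135-6203184. The block began 53 bases after one of the annotated starts of PFKFB3, at position 6202932. Its strongest window exceeded 90.1% of the strongest windows of protein-coding genes and 78.5% of those of the 854 protein-coding genes with 9 windows. No gene of the table has more than 9 windows, so the list of PFKFB3 may be cut short. The order of its q-values against its p-values showed 0 skipped positions, so no passing window with a p-value below the largest one listed is missing.

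ALDOA, the aldolase of muscle and most other cells, splits the product of phosphofructokinase into triose phosphates. ALDOA (ENSG00000149925, chr16:30064279-30070420, plus strand) had 3 windows, with signal values of 2.32, 1.24 and 2.68 from 5′ to 3′. The first, chr16:30065765-30065814, began 5 bases after an annotated start, and the last, chr16:30070365-30070414, ended 6 bases before the end of the gene. It was the only window among the 32 within 500 bases of the end of its gene, a share of 3.13%, next to 1.70% of 19128 windows of protein-coding genes. The last 2 windows of ALDOA overlapped by 26 bases with windows of AC093512.2 (ENSG00000285043), a protein-coding gene on the same strand, with signal values of 0.84 and 2.68. Reads of the overlapping genes cannot be told apart, so these 2 values of ALDOA are uncertain. The first window, with a value of 2.32, overlapped no window of another gene.

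PGK1 carries out the first step of glycolysis that yields ATP. PGK1 (ENSG00000102144, chrX:78104248-78129295, plus strand) had 3 adjacent windows, with signal values of 1.91, 1.40 and 1.10 from 5′ to 3′. They formed 1 block of 150 bases, chrX:78104240-78104389, which began 8 bases before the annotated start and covered less than 1% of the gene at its 5′ end. Signal values fell along the block, but the smallest p-value, 4.07e-08, belonged to the middle window.

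The start regions of PGK1 and ALDOA are shown because a listed window lies there and RefSeq gives the sequence. Each stretch has 80 bases of the plus strand of GRCh38.p14, from 50 bases before the annotated start to the 30th base from it, and capitals mark the bases inside a listed window. The PGK1 stretch is chrX:78104198-78104277 and the ALDOA stretch is chr16:30065710-30065789.
PGK1: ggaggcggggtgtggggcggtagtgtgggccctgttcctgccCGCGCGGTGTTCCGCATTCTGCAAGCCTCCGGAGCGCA
ALDOA: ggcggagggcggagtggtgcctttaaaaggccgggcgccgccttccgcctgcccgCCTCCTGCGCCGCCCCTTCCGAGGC
The letters GGAC, the core of the most common m6A motif, were searched on both strands (GTCC on the other). They were in 0 of these 2 stretches, next to 46.7% of 22183 stretches of the same length at the starts of protein-coding genes, or 27.1% when only the strand of the gene was searched. In the full 300 bases that RefSeq gives around each start, GGAC was on the strand of the gene in 2 of 2, next to 69.3% of protein-coding genes. Of the 300 bases 250, and of the 80 bases 50, lie before the annotated start and outside a transcript that begins there. These counts therefore cannot show whether the bound RNA held the motif. Most of the bases in the PGK1 and ALDOA windows lie outside the 80 base stretches.

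Across the members, 11 of 32 windows (34.4%) overlapped an annotated start or began within 500 bases after it, 6 in PFKFB3, 3 in PGK1 and 2 in ALDOA. Over all protein-coding genes the share was 29.0% of 19128 windows. The first LDHA window began 510 bases after a start and is not among the 11.

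LDHA, the lactate dehydrogenase subunit that favours lactate formation, had 2 windows. LDHA (ENSG00000134333, chr11:18394563-18408425, plus strand) had a signal value of 1.84 at chr11:18396861-18396910 and of 1.52 at chr11:18399461-18399510. Neither exceeded the median of all listed windows.

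GAPDH, the triose phosphate dehydrogenase that serves as a reference gene in many assays, was the weakest of the listed members by signal value. By the authors' p-values it was not last: its smallest, 4.84e-06, was below the smallest of HK1, 2.22e-05. GAPDH (ENSG00000111640, chr12:6534517-6538371, plus strand) had 2 adjacent windows, chr12:6537113-6537162 with a signal value of 1.23 and chr12:6537163-6537212 with 0.92. They lay at 68.0% and 69.3% of the gene. Its strongest window exceeded the strongest window of 1.21% of protein-coding genes, and of 1.19% of the 1175 that likewise had 2 windows. A window of the lncRNA gene AC006064.4 (ENSG00000269968) on the opposite strand, chr12:6538145-6538194 with a signal value of 1.63, lay inside the GAPDH interval and overlapped neither GAPDH window.

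**Figure D2:**
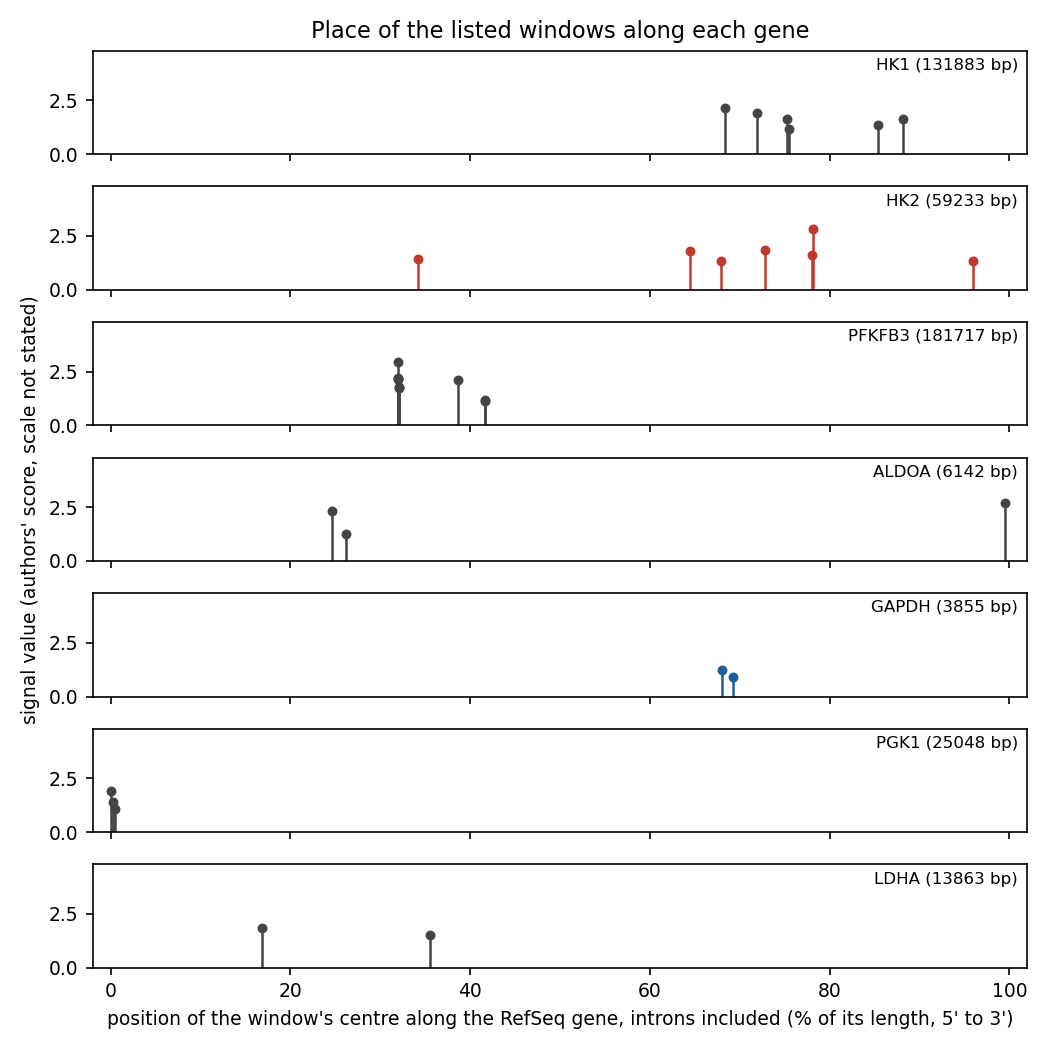
Position of each listed window along its gene (x axis, percent of the RefSeq gene length from 5′ to 3′, introns included) against its signal value (y axis, no stated scale), 1 panel per listed member with the gene length in bp. PGK1 windows sit at the very start, 6 of the 9 PFKFB3 windows share 1 place at 32% of the gene, and HK1 and HK2 windows are spread out.

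The next comparison set HK2 against GAPDH and the other abundant enzymes. All 7 listed HK2 windows had a higher signal value than both listed GAPDH windows. Only windows that passed the q-value limit have a value, so the weakest, median and mean values of a gene depend on which of its windows passed, and GAPDH had a window that passed at a low signal value with a small p-value. The strongest windows were 2.81 in HK2 (7 listed of 63 tested windows) and 1.23 in GAPDH (2 of 21), a difference of 1.58. Each is a maximum over a gene's windows, and the larger number tested in HK2 was not adjusted for. The weakest HK2 window (1.33) was above the strongest GAPDH window by 0.10. HK2 did not stand apart from the other members in this way. Its strongest window was above that of LDHA by 0.97, of PGK1 by 0.90 and of ALDOA by 0.13, and below that of PFKFB3 by 0.13 (2.81 against 2.94). By the median over a gene's windows, HK2 (1.60) lay above PGK1 (1.40) and GAPDH (1.08 from 2 windows) and below LDHA (1.68), HK1 (1.64), PFKFB3 (2.09) and ALDOA (2.32).

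Ordered by the strongest window, the members ran PFKFB3 (2.94), HK2 (2.81), ALDOA (2.68), HK1 (2.13), PGK1 (1.91), LDHA (1.84) and GAPDH (1.23). The ALDOA value is from a window that overlaps one of AC093512.2, and its window clear of overlap (2.32) would hold the same place. With no value per library, it is unknown which neighbours in this order differ by more than replicate error. The order was also not adjusted for the number of tested windows, from 20 in LDHA to 86 in PFKFB3. The ranges of window values overlapped between every pair of neighbours except LDHA (1.52 to 1.84) and GAPDH (0.92 to 1.23), and the GAPDH range met that of PGK1 (1.10 to 1.91). The median of the strongest window over the 7 listed members was 2.13, next to 2.23 over all protein-coding genes with a window. Over the 32 windows of the members the median signal value was 1.69, and 11 of them exceeded the median of the table.

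The number of windows in a gene depends on how many were tested, and this number can be recovered by dividing q-values by p-values. HK2 had 63 tested windows (3150 bases), of which 7 were listed, a share of 11.1% (Wilson 95% interval 5.49% to 21.2%). GAPDH had 21 tested windows (1050 bases), of which 2 were listed, a share of 9.52% (Wilson 95% interval 2.65% to 28.9%). The larger number of HK2 windows thus went with a larger number of tested windows, and the shares differed by less than their intervals. Among the other members, the listed share ran from 4.76% in PGK1 (3 of 63 windows, interval 1.63% to 13.1%) to 14.6% in HK1 (6 of 41, interval 6.88% to 28.4%). It was 12.5% in ALDOA (3 of 24), 10.5% in PFKFB3 (9 of 86, where the 9 listed windows are a minimum) and 10.0% in LDHA (2 of 20). Over the 7 members 32 of 318 tested windows were listed (10.1%), next to 8.60% of the tested windows of all protein-coding genes with a listed window. The intervals reflect counting error alone and treat neighbouring windows as independent, which they are not.

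**Figure D3:**
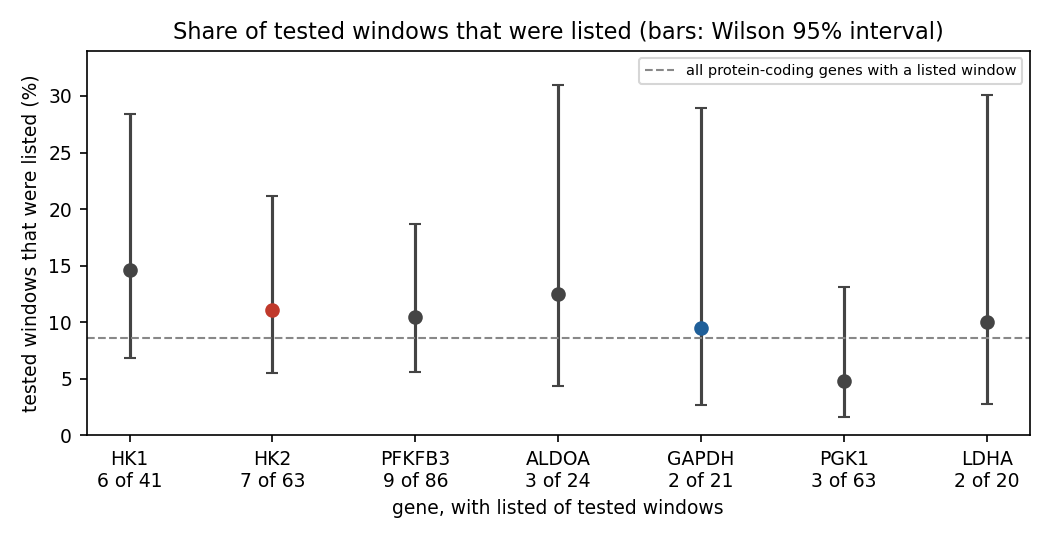
Share of tested windows that were listed (y axis, percent) for each listed member, with Wilson 95% intervals as bars and the numbers of listed and tested windows under each gene. The dashed line is the share over all protein-coding genes with a listed window (8.60%), and it lies inside the interval of all 7 genes.

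Signal value and p-value ordered the windows differently. The stronger GAPDH window, with a signal value of only 1.23, had a p-value of 4.84e-06, smaller than that of 96.9% of the 1167 windows with a signal value within 0.05 of it. For the second PGK1 window (signal value 1.40, p-value 4.07e-08) this share was 99.2% of 1455 windows, and for the first LDHA window (1.84, p-value 1.93e-07) it was 93.8% of 3028. At the same signal value of 1.84, the fourth HK2 window had a p-value of 2.56e-06, smaller than that of 88.9%. Other windows of the hexokinases had large p-values for their signal values. The third HK2 window (1.33) had a p-value of 0.00552, smaller than that of 8.09% of 1348 windows of like signal, and in 5 of the 6 HK1 windows this share ran from 21.0% to 48.3%. In PGK1 and ALDOA, all 3 windows had a smaller p-value than most windows of like signal. The reads behind each window were not analysed here, and their part in these values was not tested.

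**Figure D4:**
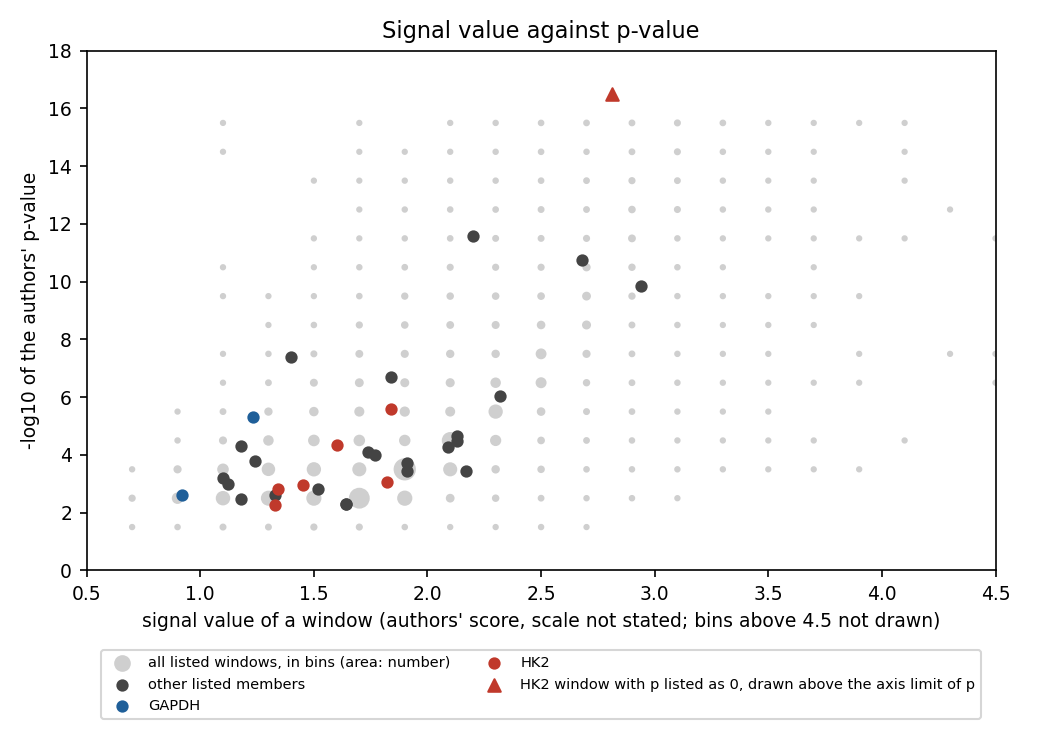
Signal value (x axis, no stated scale) against −log10 of the deposited p-value (y axis) for the windows of HK2, GAPDH and the other listed members, over all listed windows in grey bins whose area gives the number of windows. The HK2 window at 2.81 has a p-value listed as 0 and is drawn as a triangle above the rest; the GAPDH window at 1.23 lies above most grey windows of like signal.

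Pseudogenes named after each member were looked up by symbol, since reads of a processed pseudogene and of its parent gene can be shared. How alike their sequences are was not examined. RefSeq names 65 pseudogenes of GAPDH, 6 of LDHA, 5 of PKM, 4 of ENO1, 2 each of ALDOA and PGK1, and 1 of HK2. Of these, 1 of ENO1, 1 of LDHA and 0 of the other genes had a window. The share of all pseudogenes with a window was not worked out, so these counts have no background. A window was listed for ENO1P1, a pseudogene of the unlisted ENO1, at chr1:236483366-236483415 with a signal value of 2.90 (q-value 0.00414) from 2 tested windows. Another was listed for LDHAP4, a pseudogene of LDHA, at chr9:14922088-14922137 with a signal value of 2.76 (q-value 1.96e-06) from 6 tested windows. The LDHAP4 value was higher than both LDHA windows, while ENO1 had no window to compare. ENO1P1 exceeded 95.7% of all listed windows and LDHAP4 exceeded 93.7%. How reads with several matches were handled is not given in the sources used here. The values of all members with a pseudogene, and of both listed copies, are therefore uncertain, and so is the missing window of ENO1 and of PKM. The comparison of HK2 with GAPDH is uncertain on both sides. No window of another gene lay inside the intervals of PFKP, ENO1 or PKM.

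The rest of the pathway was examined through 38 further genes, grouped by role. Of these, 17 had a window (44.7%), with 63 windows in all, next to the 31.8% of protein-coding genes given above. The median of their strongest windows was 2.15, with a range from 1.49 to 2.92, close to the 2.13 of the 7 listed members. The list was chosen with earlier results of these data known and was not tested as a whole. Window counts and strongest values were not adjusted for the windows tested, from 11 in PDHB to 184 in SLC16A3.

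Among the early enzymes of the pathway, both other forms of phosphofructokinase were listed, in contrast to PFKP. PFKL, the liver form, had 6 windows with a strongest signal value of 2.01, and PFKM, the muscle form, had 5 windows with 2.15. PFKFB4, a relative of PFKFB3 with the same reaction, had 2 windows and reached 2.73, above the strongest window of 82.9% of protein-coding genes. PFKFB2 had 1 window with a value of 2.18, and PFKFB1 and TIGAR, a phosphatase that opposes them, had none. GPI, the isomerase after hexokinase, had 2 windows and reached 1.63. The hexokinase genes HK3 and HKDC1 and the aldolase gene ALDOC had no window.

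Among the lower enzymes, PGAM1, the mutase before enolase, had 4 windows and reached 1.98. ENO2, the neuronal enolase, had 3 windows and reached 1.83, and LDHB, the other main subunit of lactate dehydrogenase, had 1 window with 2.02. No window was listed for TPI1, another abundant housekeeping enzyme, or for GAPDHS, PGK2, PGAM2, ENO3, PKLR and LDHC. Abundant glycolysis enzymes were thus found on both sides: GAPDH, ALDOA, PGK1 and LDHA had windows, and ENO1, PKM and TPI1 did not.

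All 5 genes of glucose and lactate transport on the list had windows, next to 31.8% of protein-coding genes; this group was singled out after its values were seen. SLC16A3, a lactate exporter, had 8 windows among 184 tested, and its strongest value of 2.92 was next to that of PFKFB3. SLC16A1, another lactate carrier, had 9 windows and reached 2.10, so its list may be cut short, and BSG, the chaperone of both carriers, had 3 windows and reached 2.24. Of the glucose transporters, SLC2A3 had 4 windows and reached 2.63, and SLC2A1 had 2 and reached 1.49, the lowest strongest value of the 17 genes.

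At the exit to the mitochondrion, PDHB, a subunit of pyruvate dehydrogenase, had 1 window with a value of 2.31, and PDHA1 had none. Of the 4 kinases that inhibit this complex, only PDK3 was listed, with 3 windows and a strongest value of 2.23. The enzymes of glucose synthesis FBP1, PCK2 and PC had no window. HIF1A and MYC, transcription factors that switch on many glycolysis genes, had 5 and 4 windows and reached 2.25 and 2.09.

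**Figure D5:**
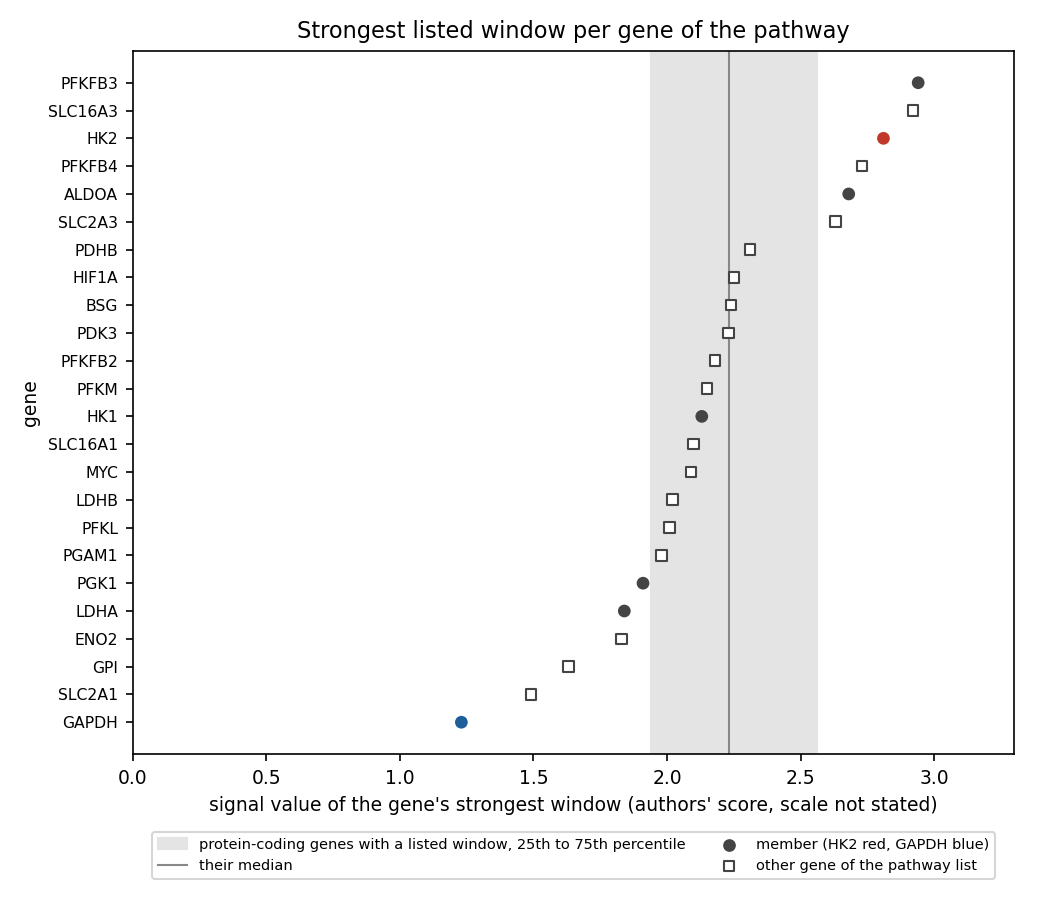
Signal value of the strongest listed window (x axis, no stated scale) of the 7 listed members (filled circles) and of the 17 listed genes among 38 others of the pathway (open squares), in ascending order from the bottom. The band gives the 25th to 75th percentile (1.94 to 2.56) and the line the median (2.23) of protein-coding genes with a listed window: PFKFB3, SLC16A3, HK2, PFKFB4, ALDOA and SLC2A3 lie above the band and GAPDH is lowest.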

How the data were processed

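Per the labels, RNA bound to YTHDF1 and input RNA were made into strand-specific libraries depleted of ribosomal RNA. The submitters' processing notes name STAR 2.7.3a and GRCh38. The peak caller is not given in the sources used here. The study describes its protein-coding peaks as a union over replicates, and whether this holds for the whole table is not stated there. The deposited table holds, per 50 bp window, a signal value and a rank, both used as a score with no stated scale, and the authors' p-value and q-value. Every q-value was at most 0.05, and 0 columns belonged to a single library, so IP-YTHDF1 and input were not tested against each other.

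Of the rows, 1 exact repeat was dropped. Positions are counted from 1. The members and lists were chosen with earlier results of these data known, and all genes with a window in each list are named. Some genes of the pathway list are counted in its total but are not reported here by name. The windows tested per gene were computed from q-value, p-value and position in the order of p-values, as in Benjamini-Hochberg adjustment within a gene. In 2372 genes with 1 window this number was whole within 0.5% in 99.6%. For genes at the limit of 9 windows it is a minimum if a window with a smaller p-value is missing, which the order of q-values did not show for PFKFB3. The calculation was tested on simulated data. All 10 members matched RefSeq (GRCh38.p14) by symbol, which gave gene intervals, start sites and start sequences, and 97.3% of windows in protein-coding genes lay inside the RefSeq gene of the same symbol. Exons and coding sequence were not used here. The software was matplotlib 3.10.9, SciPy 1.17.1, NumPy 2.4.6 and pandas 2.3.3 under Python 3.11.15. The alternatives were stricter q-values, adjustment over the 309997 windows tested in genes with a listed window, a signal value of at least 2, joined windows, windows free of overlap, and other summaries of a gene.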

Additional observations from a re-analysis of the deposited data

How the results depend on the processing

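No paired analysis was possible because each window has 1 value for all libraries together, and leaving out a replicate was not run for the same reason. The planned count of windows holding GGAC was not run because no genome sequence was used here. The 7 listed members became 4 under the Bonferroni limit and 4 with a minimum signal value of 2, and stayed at 7 under the other 3 alternatives. Their 32 windows became 14 at a q-value of at most 0.001, 5 under the Bonferroni limit and 9 with that minimum signal value, as stricter limits imply, and were 22 to 30 under the other 3. HK2 exceeded GAPDH by 1.58 for the strongest window, 0.53 for the median and 0.67 for the mean over listed windows. The weakest HK2 window was above the strongest GAPDH window by 0.10. A q-value of at most 0.001 could not change the 1.58, since both strongest windows already passed it. All these values rest on listed windows only and were not adjusted for the number of windows tested.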
